A study of Homo sapiens with 2 samples.

Results

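The 10 genes examined here sense, import and dispose of glucose carbon, and their levels were followed in PC9 cells, a human lung adenocarcinoma line driven by a mutant EGFR receptor, in which single genes had been targeted with CRISPR sgRNAs. They are 10 of the 36601 in the deposited matrix, found by symbol: the sensor subunits MLX and MLXIP, the target genes TXNIP and ARRDC4, the glucose transporters SLC2A1 and SLC2A3, the lactate dehydrogenase subunits LDHA and LDHB, and the lactate carriers SLC16A1 and SLC16A3. They were chosen with it known that TXNIP was higher in cells with PGAM1 sgRNAs and LDHB lower in cells with MYC sgRNAs, so both of those comparisons are given as descriptions without a p-value. PGAM1 encodes phosphoglycerate mutase, a glycolytic enzyme.

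Each cell was read with a 10x Genomics 3' expression library and direct capture of its sgRNA, and the cells came from 1 pooled culture. Cells with sgRNAs against PGAM1 (333 cells), ATF4 (859), CTNNB1 (1552), JUN (836), CTCF (1182) and MYC (94) were set against 700 cells with non-targeting control sgRNAs. Every group, controls included, went through lentiviral transduction (polybrene at 8 ug/ml, about 40% of cells infected) and puromycin at 1 ug/ml. The labels are at odds with each other and with the matrix. They call the cells knockouts and also dCas9 cells, so whether the genes were cut or repressed cannot be told apart, they give day 8 and day 7, they name 4 targets where the matrix holds 6, and they describe sgRNA pairs and also 4 sgRNAs per vector.

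Of 10847 barcodes, 10142 cells passed the filter, with a median of 12239.5 gene UMIs per cell (1011 to 39824), where a UMI marks 1 captured RNA molecule. A single sgRNA, with at least 5 UMIs and 80% of the cell's sgRNA UMIs, was assigned to 5556 of them (54.8%), and 10.1% of the cells that passed held at least 5 UMIs of sgRNAs from each of 2 or more targets. Tests used 34 sgRNAs with at least 20 cells each, 4 each for PGAM1 and control, 6 each for ATF4, CTNNB1, JUN and CTCF, and 2 for MYC. The sgRNAs stand in for replicates, but they share 1 culture and 1 library. A p-value here therefore reflects how sgRNAs vary among themselves, and that variation may be technical. Levels are in CPM, UMIs of a gene per 1000000 gene UMIs. Of the markers of an epithelial line, KRT18 stood at 4435 CPM, KRT8 at 1610, KRT19 at 2204, EPCAM at 268 and CDH1 at 50.2 CPM. Markers of T cells lay between 0.022 and 0.22 CPM, those of fibroblasts between 0 (COL1A2 and COL3A1) and 1.90, and those of endothelial cells between 0.0075 and 2.03.

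MLX pairs with MLXIP (also called MondoA), which is held in the cytoplasm and moves to the nucleus when hexose phosphates build up from glucose. The complex binds paired E-box half-sites and switches on TXNIP and ARRDC4, alpha-arrestins that lower glucose uptake by drawing glucose transporters off the cell surface. Pyruvate from glycolysis is turned into lactate by tetramers of LDHA and LDHB, and the lactate leaves or enters through the monocarboxylate carriers SLC16A1 and SLC16A3.

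Promoters of 8 of the 10 genes were matched in RefSeq's windows from 250 bases before to 50 bases after a gene's start (build GRCh38.p14). SLC2A3 and SLC16A1 were not matched. A window is printed below for both glucose-responsive genes, TXNIP (chr1:145996530-145996829, minus strand) and ARRDC4 (chr15:97960453-97960752, plus strand), and for LDHA (chr11:18394313-18394612, plus strand) and SLC16A3 (chr17:82228792-82229091, plus strand, 1 of its 5 windows), a pair picked because they hold an ACGTG core and were also higher in cells with a high hypoxia score. Capitals mark matches to the motifs described after the sequences.
TXNIP: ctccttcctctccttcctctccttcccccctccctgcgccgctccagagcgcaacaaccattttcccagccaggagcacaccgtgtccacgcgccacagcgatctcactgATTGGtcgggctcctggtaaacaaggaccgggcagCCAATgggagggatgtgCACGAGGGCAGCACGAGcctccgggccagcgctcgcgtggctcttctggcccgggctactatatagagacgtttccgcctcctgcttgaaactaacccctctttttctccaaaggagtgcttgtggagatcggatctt
ARRDC4: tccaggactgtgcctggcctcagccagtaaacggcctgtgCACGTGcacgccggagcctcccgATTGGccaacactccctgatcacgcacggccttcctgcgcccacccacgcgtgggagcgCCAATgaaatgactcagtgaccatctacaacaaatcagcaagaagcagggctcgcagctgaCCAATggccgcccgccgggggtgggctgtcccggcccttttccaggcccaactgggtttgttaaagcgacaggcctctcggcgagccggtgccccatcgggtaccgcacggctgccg
LDHA: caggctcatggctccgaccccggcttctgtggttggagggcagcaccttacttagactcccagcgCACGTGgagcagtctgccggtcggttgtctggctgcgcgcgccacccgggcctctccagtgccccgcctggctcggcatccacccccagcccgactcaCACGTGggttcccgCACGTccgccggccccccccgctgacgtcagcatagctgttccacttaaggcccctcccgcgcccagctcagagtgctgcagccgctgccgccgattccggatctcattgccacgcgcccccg
SLC16A3: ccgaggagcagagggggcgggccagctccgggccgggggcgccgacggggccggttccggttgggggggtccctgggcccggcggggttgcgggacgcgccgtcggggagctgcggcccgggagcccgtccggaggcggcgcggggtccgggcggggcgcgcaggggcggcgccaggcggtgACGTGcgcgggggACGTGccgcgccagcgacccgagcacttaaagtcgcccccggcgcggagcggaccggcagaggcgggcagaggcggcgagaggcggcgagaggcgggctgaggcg

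The paired half-site searched was CACGNG, any 5 bases, then CACGNG, on both strands. It occurs in 20 of 35116 windows in the table (0.0570%), and 1 of these is the printed TXNIP window, where it lies 88 to 72 bases before the start. No other window of the 8 genes held it. The plain E-box CACGTG, found in 7.26% of all windows, occurred at 2 places in LDHA and at 1 each in ARRDC4 and MLX. The hypoxia response core ACGTG overlaps with it and occurs in 21.4% of windows. It was found at 2 places in the printed SLC16A3 window, without a full E-box, and also in LDHA, ARRDC4, MLX and the second TXNIP window. CCAAT, in 34.6% of windows, was found at 2 places in the printed TXNIP window and at 3 in ARRDC4, and at 1 in SLC2A1, LDHB, MLXIP and MLX. The ratio of CPM in cells with a high hypoxia score over the rest is described further on. Among members with ACGTG in a window it was 2.15 for LDHA, 1.70 for SLC16A3, 1.44 for TXNIP, 1.06 for ARRDC4 and 0.97 for MLX. Among matched members without it the ratio was 2.21 for SLC2A1, 1.32 for MLXIP and 0.82 for LDHB. The ARRDC4 ratio rests on 27 UMIs in the cells with a high score. Sites outside these windows were not searched, and a link between the core and the ratio was not tested. The motif matches are of letters only.

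Of the 10 members, 8 passed the filter on low counts and entered the test of 11570 genes. ARRDC4, with 287 UMIs in all cells that passed, and SLC2A3, with 10, did not, so they have no fitted fold change. The comparisons below share the same 4 control sgRNAs.

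**Figure D1:**
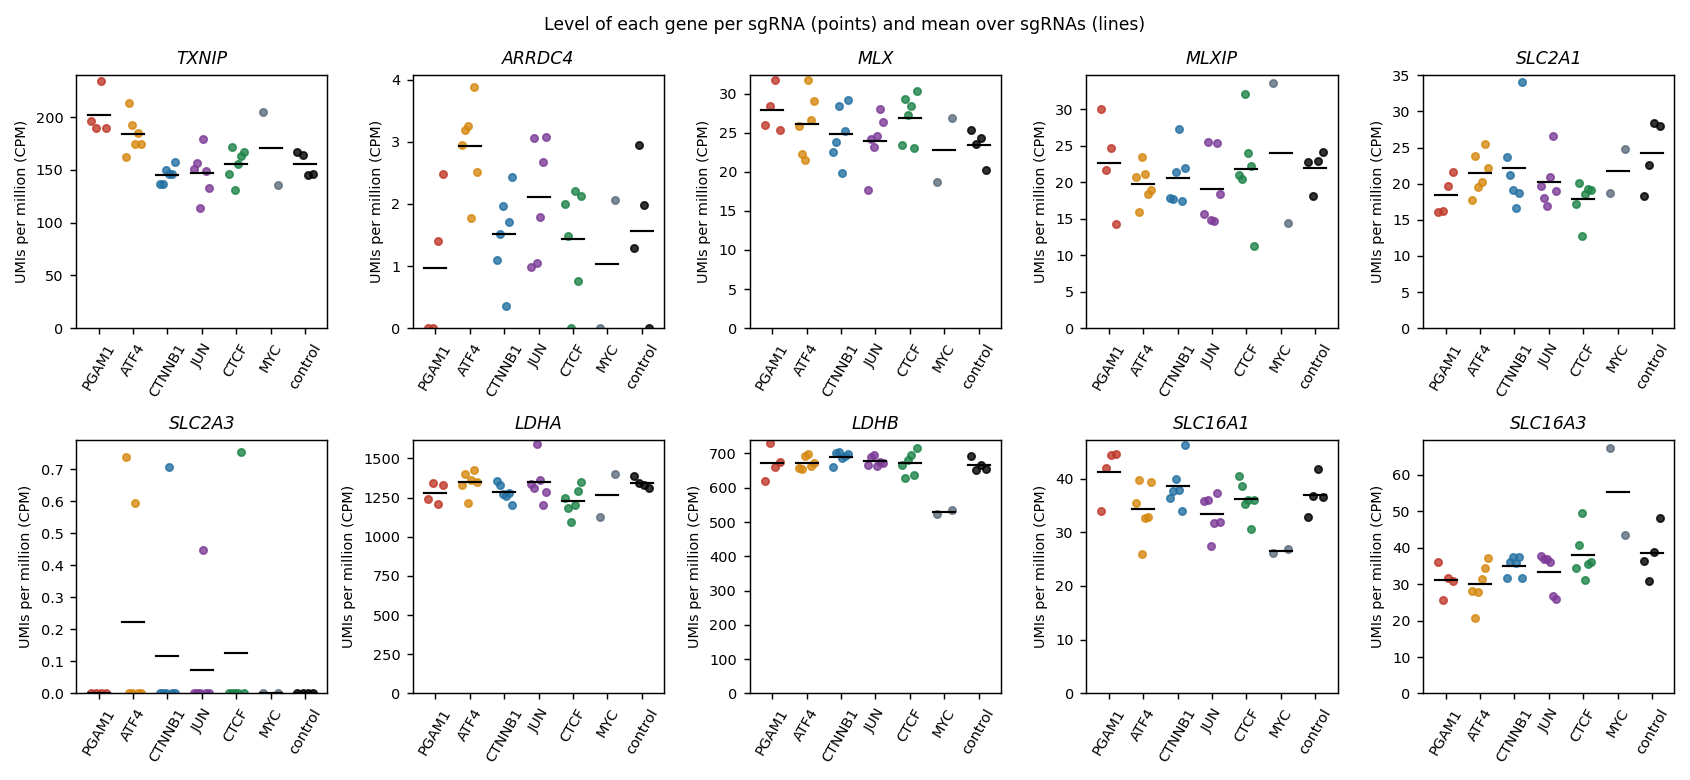
Levels of the 10 genes in CPM (vertical axes, linear and starting at 0) for each of the 34 sgRNAs (points), grouped by target with the controls at the right; lines are means over sgRNAs. TXNIP lies between 189 and 234 CPM with the 4 PGAM1 sgRNAs and between 145 and 167 CPM with the 4 controls, and LDHB is lowest with the 2 MYC sgRNAs.

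TXNIP (ENSG00000265972, chr1:145992435-145996579) codes for the arrestin that binds thioredoxin and restrains glucose uptake. It stood at 196, 189, 234 and 189 CPM with PGAM1 sgRNAs 1 to 4, against 167, 164, 145 and 146 CPM with control sgRNAs 1 to 4. The PGAM1 values all lay above the highest control, and the means were 202 ± 21.6 and 156 ± 11.6 CPM (SD, n = 4 sgRNAs each). Its log2 fold change in edgeR's quasi-likelihood fit was 0.35 ± 0.088 (SE). It was the only 1 of the 8 members past the threshold of an adjusted p of 0.05 in this comparison, in which 0.389% of all genes tested passed. Since the comparison chose TXNIP, nothing is read from that count. Of all genes tested, 2.73% had every PGAM1 sgRNA above every control. PGAM1's own transcript in these cells stood at 102, 73.1, 65.5 and 53.2 CPM with PGAM1 sgRNAs 1 to 4. With control sgRNAs 1 to 4 it stood at 213, 206, 204 and 209 CPM. The sgRNA with least PGAM1, sgRNA 4, was thus not the one with most TXNIP.

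The call rested on all 8 sgRNAs. With any 1 of them left out, TXNIP no longer passed, at log2 fold changes between 0.27 (without PGAM1 sgRNA 3) and 0.40 (without control sgRNA 1). It also did not pass with a stricter rule for assigning the sgRNA (10 UMIs and 90%; 0.22) or in cells with at most 10% mitochondrial UMIs (0.49, with 3 PGAM1 sgRNAs). The direction was the same in each of these. In G1-scored cells the value was 0.54. Among the 34 sgRNAs, those against PGAM1 took ranks 1, 4, 6 and 7 for TXNIP, and rank 2 was ATF4 sgRNA 2 (213 CPM) and rank 3 MYC sgRNA 2 (205 CPM), so single sgRNAs of other targets reached the same levels.

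Cells with PGAM1 sgRNAs differed from controls in other ways measured here. Their median mitochondrial share was 9.71%, against 11.2% in control cells, and 53.2% of them were scored as G1, against 58.9%. The part of these differences in the TXNIP level was not tested. The splits below use the same cells that led to the choice of TXNIP, so they are descriptions and no separate support. TXNIP was higher with PGAM1 sgRNAs on both sides of the median mitochondrial share. It stood at 192 (176 to 209) CPM, against 145 (133 to 157) in controls, in cells at or below that median, and at 229 (206 to 255), against 171 (160 to 183), above it; brackets give 95% counting intervals, which cover counting error only. In cells scored as G1 it was 232 (212 to 254) CPM with PGAM1 sgRNAs, against 160 (148 to 171) with controls, and in G2/M 199 (178 to 223), against 163 (149 to 178). In S phase the intervals overlapped, with 134 (107 to 165) CPM in 46 PGAM1 cells, against 146 (124 to 171) in 77 control cells. Cells without a PGAM1 UMI had 219 (200 to 240) CPM of TXNIP with PGAM1 sgRNAs, against 201 (175 to 230) with controls, with overlapping intervals. Cells with at least 1 PGAM1 UMI had 191 (173 to 210), against 154 (145 to 163) CPM.

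The same measure was then taken in cells that had not chosen TXNIP. These were cells left unassigned because their leading sgRNA had only 2 to 4 UMIs, and they numbered 103 for PGAM1 and 112 for control. PGAM1's own transcript was lower in them, at 94.0, 105, 82.8 and 32.8 CPM with PGAM1 sgRNAs 1 to 4, against 191, 234, 148 and 244 CPM with the control sgRNAs, so the weak sgRNA signal still separated the groups. TXNIP stood at 273, 258, 232 and 284 CPM with PGAM1 sgRNAs, against 181, 129, 247 and 97.6 CPM with controls. These levels came from 32, 37, 87 and 173 TXNIP UMIs with PGAM1 sgRNAs, against 38, 95, 67 and 14 with controls. Control sgRNA 3 lay above PGAM1 sgRNA 3, so the groups overlapped. The means were 262 ± 22.4 and 164 ± 65.6 CPM (SD, n = 4 sgRNAs each). On the log2(CPM + 1) scale the difference was 0.76, with p = 0.0571 by a two-sided exact permutation test over sgRNAs, where the smallest p that 4 against 4 allows is 0.0286. The difference was thus in the same direction but did not pass 0.05. The median mitochondrial share of these unassigned cells was 8.81% for PGAM1, against 11.4% for control, and its part was not tested.

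**Figure D2:**
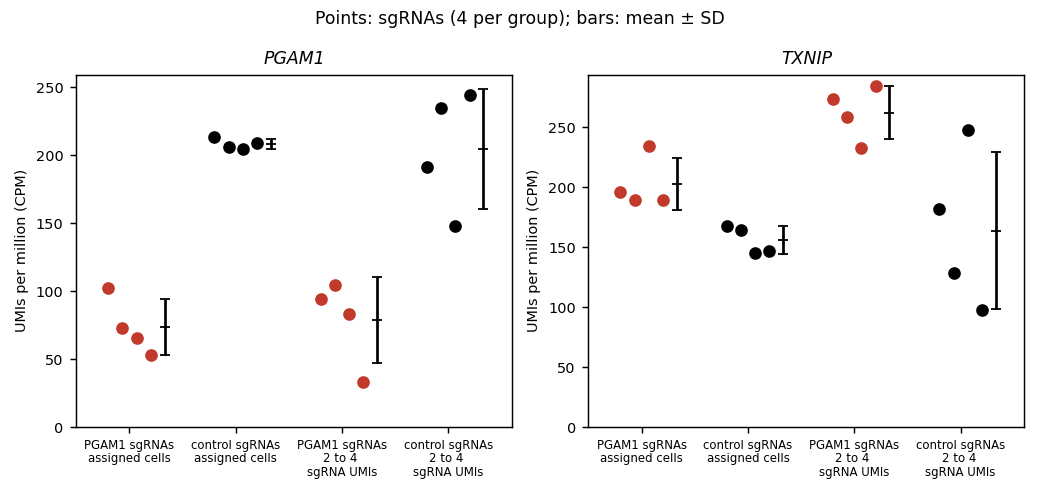
Levels in CPM (linear axes from 0) of PGAM1 (left) and TXNIP (right) per sgRNA (points, 4 per group) with mean and SD beside them, in assigned cells and in unassigned cells with 2 to 4 sgRNA UMIs. PGAM1 is lower with PGAM1 sgRNAs in both sets of cells, and TXNIP overlaps between groups in the unassigned cells at 1 control sgRNA of 247 CPM.

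ARRDC4 (ENSG00000140450, chr15:97960703-97973833), an arrestin related to TXNIP and also known as a target of MLX complexes, was too rare to follow. With PGAM1 sgRNAs it had 6 UMIs in all, or 1.404 (0.52 to 3.06) CPM, against 15 UMIs or 1.67 (0.94 to 2.76) CPM in control cells. The ratio was 0.84 with a 95% interval of 0.27 to 2.29, which holds both no difference and the ratio of 1.29 seen for TXNIP over the same cells. Its ratio to control was 1.61 (0.84 to 3.21) with ATF4 sgRNAs, from 31 UMIs, 0.87 (0.45 to 1.74) with CTNNB1, 1.30 (0.65 to 2.68) with JUN, 0.99 (0.50 to 2.02) with CTCF and 1.15 (0.13 to 4.93) with MYC. Every interval includes 1, so no difference was detectable at this depth.

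Neither gene of the sensor passed. MLX (ENSG00000108788, chr17:42567100-42573203) stood at 26.0, 28.4, 31.7 and 25.4 CPM with PGAM1 sgRNAs, against 25.3, 23.6, 24.4 and 20.2 CPM with controls. The lowest PGAM1 value and the highest control differed by less than 0.1 CPM, and the log2 fold change of 0.20 ± 0.16 (SE) did not pass. It was 0.13 without PGAM1 sgRNA 3, 0.012 in G1-scored cells and 0.34 in cells with at most 10% mitochondrial UMIs. MLXIP (ENSG00000175727, chr12:122078756-122147344) ranged from 14.2 to 30.0 CPM with PGAM1 sgRNAs, a range that contained the controls' 18.2 to 24.1 CPM. Over the other targets the mean of MLX lay between 22.7 (MYC) and 26.9 CPM (CTCF), and that of MLXIP between 19.1 (JUN) and 24.0 CPM (MYC), against 23.4 ± 2.21 and 21.96 ± 2.60 CPM in controls (SD, n = 4 sgRNAs). Neither passed in any of the other comparisons.

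SLC2A1 (ENSG00000117394, chr1:42925353-42958868) is GLUT1, the main glucose importer of many tumour lines. Its mean was 18.4 ± 2.75 CPM with PGAM1 sgRNAs, against 24.3 ± 4.76 CPM in controls (SD, n = 4 each), and the control values themselves ran from 18.3 to 28.3 CPM. The groups overlapped and the gene did not pass. SLC2A3 (ENSG00000059804, chr12:7919230-7936187), or GLUT3, was barely detected. It had no UMI in the control cells, where a limit of 3 counts over the group comes to 0.335 CPM, and none with PGAM1 sgRNAs, where the same limit comes to 0.702 CPM. With the other targets it had between 0 and 3 UMIs in all.

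Neither subunit of lactate dehydrogenase passed with PGAM1 sgRNAs. LDHA (ENSG00000134333, chr11:18394563-18408425), the subunit that favours pyruvate as substrate, stood at 1241, 1345, 1208 and 1329 CPM with PGAM1 sgRNAs, against 1391, 1344, 1330 and 1314 CPM with controls. LDHB (ENSG00000111716, chr12:21635342-21657842), the subunit that favours lactate, stood at 620, 729, 659 and 675 CPM with PGAM1 sgRNAs, against 693, 652, 667 and 654 CPM with controls. The groups overlapped for both subunits. LDHB made up 34.4% (33.4 to 35.5) of the UMIs of LDHA and LDHB together in PGAM1 cells, against 33.1% (32.5 to 33.8) in control cells, by exact binomial intervals.

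SLC16A1 (ENSG00000155380, chr1:112911847-112956196) and SLC16A3 (ENSG00000141526, chr17:82217934-82240086), the carriers MCT1 and MCT4, did not pass with PGAM1 sgRNAs. SLC16A1 stood at 34.0, 41.9, 44.4 and 44.6 CPM, against 32.8, 36.8, 41.8 and 36.6 CPM with controls. SLC16A3 stood at 36.02, 25.7, 31.7 and 30.9 CPM, against 36.4, 30.9, 38.8 and 48.2 CPM with controls. The groups overlapped for both carriers. Over the 8 members tested, the median log2 fold change with PGAM1 sgRNAs was -0.053, beside 0.0060 over all genes.

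The comparisons with ATF4, CTNNB1, JUN and CTCF sgRNAs did not lead to the choice of TXNIP or LDHB. No member passed in any of them. They share their 4 control sgRNAs with the PGAM1 and MYC comparisons that did. For TXNIP and LDHB they are therefore not independent of that choice. With ATF4 sgRNAs, which target the transcription factor of the amino acid stress response, 0 of 8 members passed by edgeR, where 1.75% of all genes passed, and 0 by DESeq2, where 5.8% of the genes given an adjusted p passed. Before adjustment 2 were under 0.05, as were 12.4% of all genes. These were TXNIP and, named after its value was seen, SLC16A3. TXNIP ran from 162 over a median of 180 to 213 CPM with the 6 ATF4 sgRNAs, against 145 to 167 CPM with the 4 controls, and 5 of the 6 lay above every control. Its log2 fold change was 0.17 ± 0.074 (SE), with an adjusted p of 0.31 by edgeR's quasi-likelihood test with Benjamini-Hochberg adjustment. In G1-scored cells it was 0.25. SLC16A3 ran from 20.7 over a median of 29.7 to 37.2 CPM, against 30.9 to 48.2 CPM with controls, with a log2 fold change of -0.26 ± 0.12 (SE) and an adjusted p of 0.35 by edgeR.

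With CTNNB1 sgRNAs, against beta-catenin, 0 of 8 members passed by edgeR, where 0.00864% of genes passed, 0 were under 0.05 before adjustment, beside 4.3% of genes, and 0 passed by DESeq2, beside 0.00445%. TXNIP ran from 136 over 146 to 158 CPM with CTNNB1 sgRNAs, against 145 to 167 CPM with controls. Its log2 fold change was -0.14 with a 95% interval of -0.28 to 0.0055, so the data leave room for a small difference or none. It was -0.0078 in G1-scored cells and -0.030 in cells with at most 10% mitochondrial UMIs. Its adjusted p by edgeR was 1.00.

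JUN sgRNAs, against a subunit of the transcription factor AP-1, gave the same counts: 0 of 8 by edgeR, where 0.00864% of genes passed, 0 under 0.05 before adjustment, beside 4.63% of genes, and 0 by DESeq2, beside 0%. TXNIP spread widely over these 6 sgRNAs, from 114 over 150 to 179 CPM, against 145 to 167 CPM with controls. The log2 fold change was -0.079 (95% interval -0.23 to 0.071) and turned to 0.043 in cells scored as G1. It was -0.031 under the stricter sgRNA rule, -0.036 without control 1, -0.041 without JUN sgRNA 3 and -0.15 without JUN sgRNA 4.

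CTCF sgRNAs, against the architectural factor of chromatin, gave 0 of 8 by edgeR, where 0.0259% of genes passed, and 0 by DESeq2, beside 0% of genes. Before adjustment 2 members were under 0.05, beside 6.23% of genes. These, named after their values were seen, were LDHA and SLC2A1. LDHA ran from 1092 over 1227 to 1352 CPM with CTCF sgRNAs, against 1314 to 1391 CPM with controls, and 5 of the 6 lay below every control. Its log2 fold change of -0.12 ± 0.052 (SE) had an adjusted p of 0.78 by edgeR. SLC2A1 ran from 12.8 over 18.8 to 20.04 CPM, against 18.3 to 28.3 CPM with controls, at -0.31 ± 0.14 (SE) and also an adjusted p of 0.78 by edgeR. That value was -0.50 without control 1 and -0.20 without control 3. TXNIP overlapped the controls, at 131 over 159 to 172 CPM with CTCF sgRNAs, against 145 to 167 CPM with controls; its log2 fold change of 0.0011 (95% interval -0.14 to 0.15) had no stable sign.

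In the MYC comparison, which rests on 2 sgRNAs with 23 and 45 cells, LDHB was 1 of 8 members past the threshold, where 0.277% of genes passed; the choice of LDHB used this comparison. It stood at 523 and 534 CPM with MYC sgRNAs 2 and 4, against 693, 652, 667 and 654 CPM with controls. Both MYC values lay below every control, as they did for 14.8% of all genes with so few sgRNAs, and the log2 fold change was -0.35 ± 0.083 (SE). The call was lost in G1-scored cells (-0.17), where only MYC sgRNA 4 kept enough cells, and 69.1% of MYC cells were scored as G1, against 58.9% of control cells, a share whose part in the result was not tested. It was lost as well with DESeq2's size factors (-0.32), with the stricter sgRNA rule (-0.34, likewise 1 MYC sgRNA), without either MYC sgRNA (-0.33 without 2, -0.41 without 4), without control 1 (-0.33) and without control 3 (-0.35).

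LDHB was also read in cells that the MYC comparison did not use. MYC sgRNAs 1 and 3, with 10 and 16 cells, stood at 689 and 610 CPM. These levels came from 74 and 111 LDHB UMIs, of which a single cell held 35.1% and 17.1%. In 39 unassigned cells with 2 to 4 UMIs of a MYC sgRNA, LDHB was at 584 (515 to 660) CPM, against 628 (586 to 671) CPM in the 112 such control cells, and the counting intervals overlapped. SLC16A1 stood at 26.1 and 26.8 CPM with MYC sgRNAs 2 and 4, from 7 and 13 UMIs, below the controls' 32.8 to 41.8 CPM, at a log2 fold change of -0.47 ± 0.30 (SE) that did not pass and was -0.90 in G1-scored cells. TXNIP was at 205 and 136 CPM with MYC sgRNAs 2 and 4, 1 value above and 1 below all controls, with a log2 fold change of 0.017 ± 0.17 (SE).

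**Figure D3:**
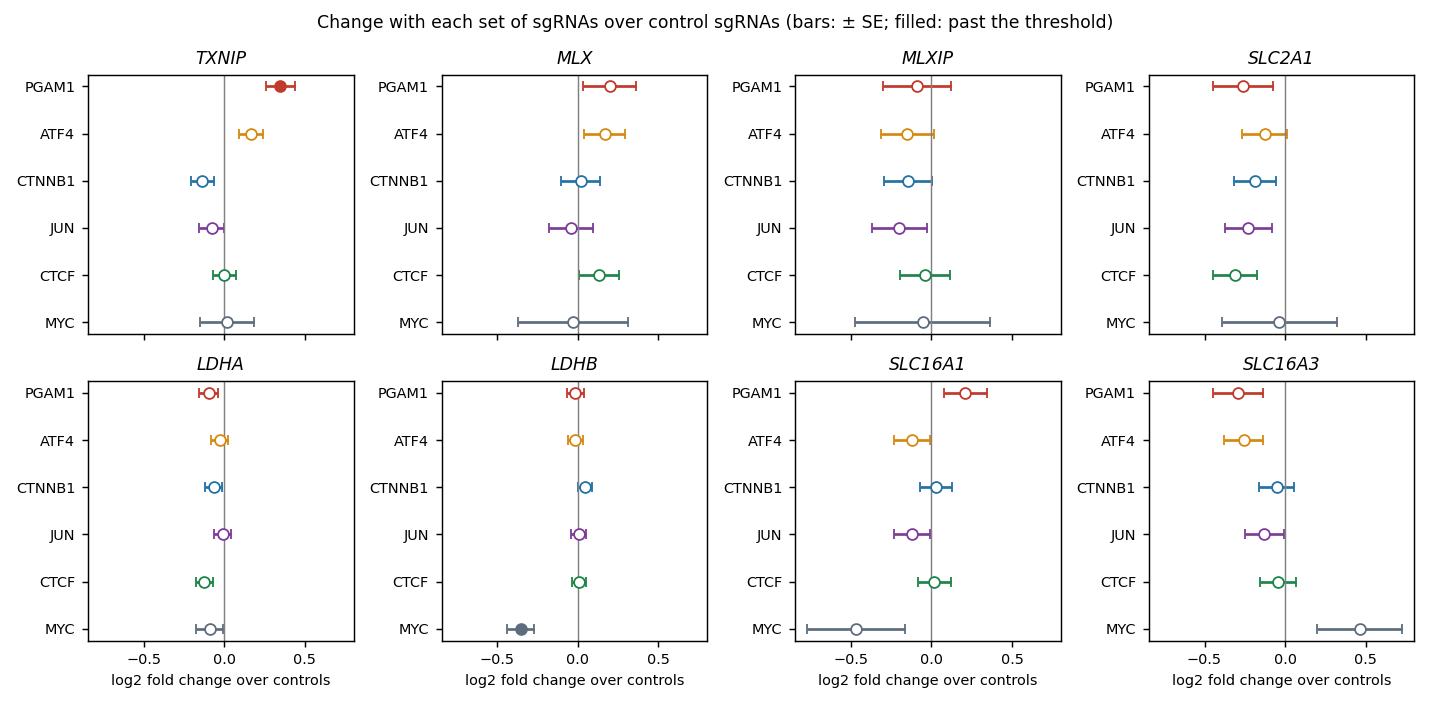
Log2 fold change over control sgRNAs (horizontal axes) of the 8 members tested, with each of the 6 targets down the page; bars are ± 1 SE and filled points passed the threshold. Only TXNIP with PGAM1 sgRNAs (0.35) and LDHB with MYC sgRNAs (-0.35), the pairs that led to the choice of these genes, are filled.

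Related genes, in 8 lists, were followed in the same fits. With PGAM1 sgRNAs no gene of any list passed, where 0.389% of all genes tested passed. The list of other MLX targets had 4 of 5 genes tested, with a median log2 fold change of 0.55 beside 0.0060 over all genes. The same list's median was 0.41 with ATF4 sgRNAs, 0.11 with CTNNB1, 0.42 with JUN, 0.10 with CTCF and -1.10 with MYC. In it HK2, a hexokinase, averaged 5.82 ± 1.47 CPM with PGAM1 sgRNAs, against 3.16 ± 1.69 CPM with controls; KLF10, a transcriptional repressor, averaged 15.8 ± 9.46, against 10.4 ± 1.13 CPM; PFKFB3, which makes an activator of glycolysis, averaged 6.02 ± 2.37, against 3.72 ± 2.27 CPM; and RGS16, a regulator of G protein signals, averaged 1.82 ± 1.26, against 3.66 ± 0.30 CPM (SD, n = 4 each). KLF10 ran from 8.67 to 29.6 CPM with PGAM1 sgRNAs, against 9.45 to 11.9 CPM with controls. None of the 4 passed. The other lists tested 4 of 4 MLX partners (-0.30), 3 of 4 other alpha-arrestins (-0.50) and 8 of 8 partners and regulators of TXNIP (-0.0041). Also tested were 4 of 12 other SLC2A transporters (0.14) and 3 of 5 other monocarboxylate carriers and chaperones (0.12). The last lists tested 12 of 13 genes of pyruvate entry into mitochondria (0.024) and 1 of 4 other lactate dehydrogenases (-0.077). Brackets give the median log2 fold change with PGAM1 sgRNAs over the genes tested in each list.

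Across the other 5 targets, the genes of these lists that passed were both lower with ATF4 sgRNAs, where 1.75% of all genes tested passed. TXNRD1, the reductase that recharges TXNIP's partner thioredoxin, averaged 334 ± 18.2 CPM with ATF4 sgRNAs (SD, n = 6), against 380 ± 37.7 CPM with controls (SD, n = 4). It fell by 0.23 ± 0.060 (SE) on the log2 scale, with an adjusted p of 0.025 by edgeR, but 1 control lay within the range of the ATF4 sgRNAs, and the call was lost under 3 of the 8 other settings and without any 1 of control sgRNAs 1 to 3 or ATF4 sgRNAs 1 and 5 (between -0.28 and -0.20 over all sgRNAs left out). SLC16A4, a monocarboxylate carrier, ran from 15.0 to 28.3 CPM with ATF4 sgRNAs, against 33.6 to 46.2 CPM with controls, without overlap, as for 1.73% of all genes in that direction. It fell by 0.82 ± 0.14 (SE) on the log2 scale. This is a description without a p-value, since its fall was known when the lists were drawn up. The list that holds TXNRD1 was also drawn up with earlier results of these data known. The p-value of TXNRD1 may therefore not be independent of them.

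Over the 34 sgRNAs, the 5 genes whose log2(CPM + 1) followed TXNIP most closely, of 5283 genes with a mean of at least 20 CPM, were FRMD6 (Pearson r = 0.74), SBDS (0.68), SOCS4 (0.66), BAZ2A (0.66) and PSME2 (0.62). The sgRNAs share 1 culture and 1 library, so these are descriptions. Without the 4 PGAM1 sgRNAs the same 5 values lay between 0.63 and 0.75. None of the 7 other members tested came near, at r between -0.19 and 0.15 with TXNIP.

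Levels were then compared between ranges of single cells in the same culture, whatever their sgRNA. A hypoxia score was averaged over 15 genes induced by low oxygen, none of them a member, and the 1015 cells with the highest score (the top 10%) were set against the other 9127. LDHA stood at 2582 CPM in the top 10%, against 1199 CPM in the rest, a ratio of 2.15 (95% counting interval 2.13 to 2.18), and was higher within all 34 sgRNAs. SLC2A1 stood at 44.0, against 19.97 CPM, a ratio of 2.21 (2.00 to 2.42), higher within 29 of 34. SLC16A3 stood at 59.8, against 35.2 CPM, a ratio of 1.70 (1.57 to 1.84), higher within 28 of 34.

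TXNIP was higher there as well, at 222 CPM in the top 10%, against 154 CPM in the rest (ratio 1.44, 1.38 to 1.499, higher within 27 of 34 sgRNAs). MLXIP stood at 26.3, against 19.9 CPM. LDHB was lower, at 571 CPM, against 695 CPM, lower within 32 of 34 sgRNAs, so that it made up 18.1% of the LDHA and LDHB UMIs in the top 10%, against 36.7% in the rest. SLC16A1 was lower as well, at 29.2, against 35.4 CPM. The ratio was 0.97 (0.85 to 1.09) for MLX and 1.06 (0.69 to 1.58) for ARRDC4. SLC2A3 had 5 UMIs in each range of cells, or 0.42 CPM in the top 10%, against 0.041 CPM in the rest. Its ratio was 10.2 (2.35 to 44.5), higher within 3 of 34 sgRNAs and lower within 2. The top 10% had a lower median depth, 10861 UMIs against 12368, and more G1-scored cells, 69.95% against 57.0%; their part was not tested. A cut at the top 20% gave LDHA a ratio of 1.63, SLC2A1 1.55 and SLC16A1 1.00. The top 10% held 9.61% (6.67 to 13.3) of PGAM1 cells, against 10.7% (8.52 to 13.2) of control cells.

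By scored phase, TXNIP was highest in G1 at 172 (169 to 175) CPM, lowest in S at 132 (127 to 138) and between them in G2/M at 154 (150 to 157). It was lower in S than in G1 within 29 of 34 sgRNAs. ARRDC4 had 2.55 (2.19 to 2.96) CPM in G1, 1.59 (1.08 to 2.28) in S and 1.75 (1.39 to 2.18) in G2/M. LDHB had the opposite order, with 647 (641 to 653) CPM in G1, 827 (814 to 840) in S and 681 (674 to 689) in G2/M. SLC16A1 likewise stood at 31.96 CPM in G1, 38.5 in S and 37.8 in G2/M. Median depth was 11011 UMIs in G1, 13977 in S and 14842 in G2/M, and a score range is no cell type.

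**Figure D4:**
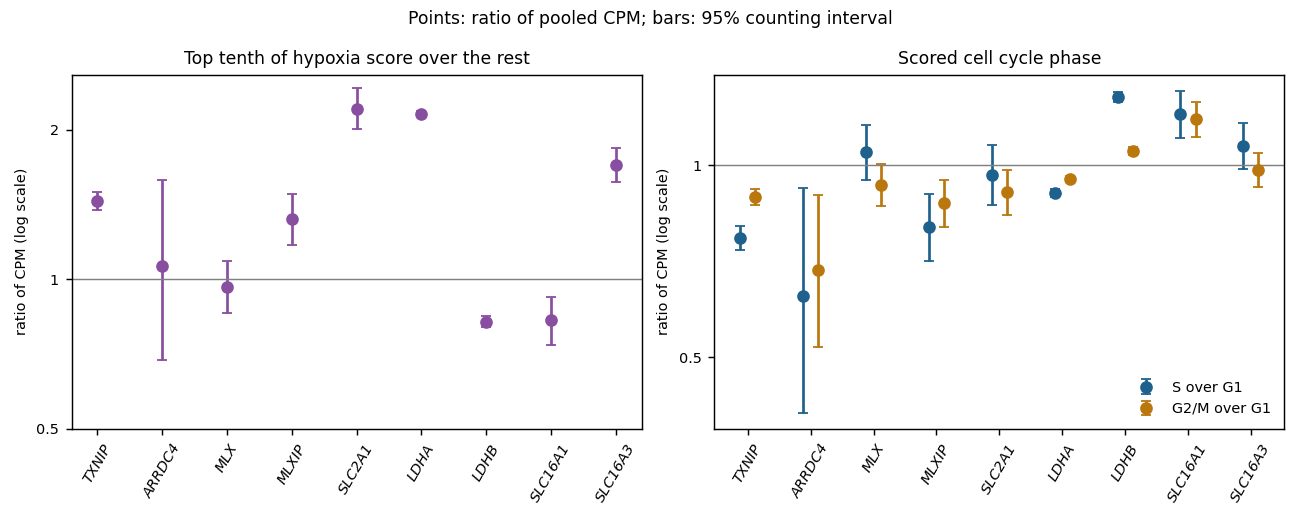
Ratios of CPM on log axes, with 95% counting intervals as bars, for 9 members (SLC2A3, with 10 UMIs, is left out): cells in the top 10% of the hypoxia score over the rest (left) and S or G2/M over G1 (right). LDHA and SLC2A1 stand above 2 under the hypoxia score, and LDHB stands below 1 there and above 1 in S phase.

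TXNIP itself varied widely from cell to cell. With each cell thinned to 8000 UMIs (9212 cells, 930 shallower cells left out), the variance of TXNIP was 2.02 times its mean, where counting alone gives 1. The same ratio was 4.55 for LDHA, 1.57 for LDHB and 1.197 for SLC2A1, and between 1.00 and 1.07 for ARRDC4, MLX, MLXIP, SLC16A1 and SLC16A3. SLC2A3, with 10 UMIs in all, is left out. Mean thinned UMIs per cell were 10.5 for LDHA, 1.31 for TXNIP and 0.17 for SLC2A1. For the genes with a ratio near 1 the means lay between 0.019 (ARRDC4) and 0.29 (SLC16A3). At such low means the ratio stays near 1 even where levels vary, so it does not rank the genes by their variation. With cells ranked by TXNIP within 10 ranges of depth, LDHB stood at 587 (577 to 596) CPM in the 20% of cells with most TXNIP, against 760 (749 to 770) CPM in the 20% with least, and was lower in the top 20% within 33 of 34 sgRNAs. In G1-scored cells alone the values were 556 and 706 CPM, lower within 31 of 34. ARRDC4 stood at 3.48 (2.81 to 4.27) CPM in the top 20%, against 1.81 (1.33 to 2.39) CPM in the lowest 20%. It was higher in the top 20% within 21 of 34 sgRNAs and lower within 6. Between those ends its levels were 1.94, 1.31 and 2.19 CPM, in rising order of TXNIP. For G1-scored cells ARRDC4 had 3.94 (2.97 to 5.13), against 2.15 (1.45 to 3.07) CPM, with overlapping intervals. There it was higher within 16 of 34 sgRNAs and lower within 7. LDHA over all cells stood at 1327 CPM in the top 20%, against 1352 CPM in the lowest.

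Finally, the assigned cells without a PGAM1 sgRNA were ranked by their own PGAM1 level in the same way. TXNIP stood at 172 (165 to 179) CPM in the 20% with least PGAM1, against 143 (136 to 149) CPM in the 20% with most, and was higher in the lowest 20% within 23 of 30 sgRNAs. LDHA had the opposite order, with 1140 (1122 to 1158) CPM in the lowest 20%, against 1632 (1611 to 1654) CPM in the highest, lower in the lowest 20% within 29 of 30. The lowest 20% had 62.2% G1-scored cells, against 53.4% in the highest, and a median mitochondrial share of 11.4%, against 9.85%; their part was not tested.

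**Figure D5:**
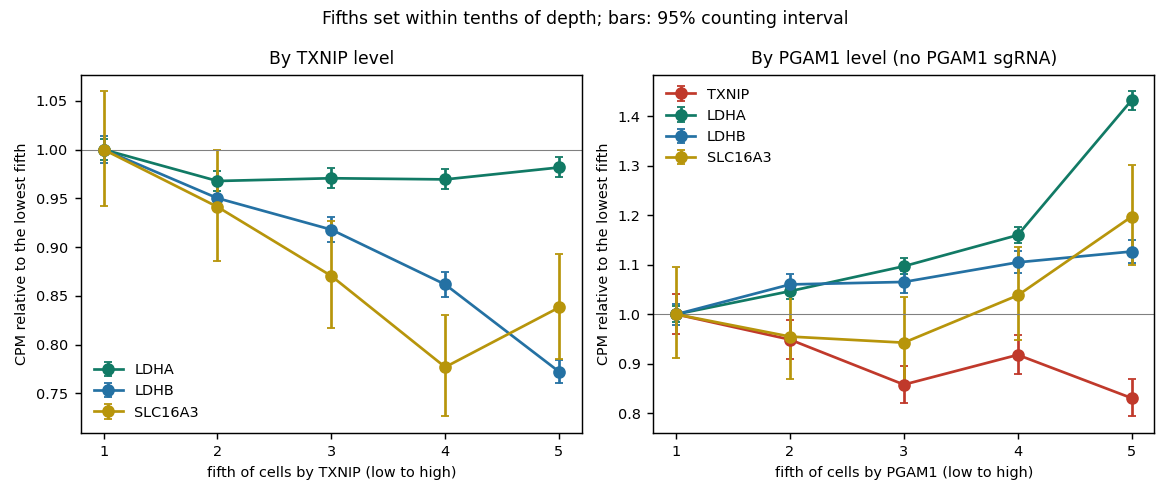
CPM relative to the lowest 20% of cells (vertical axes, not from 0) in 5 equal parts of the cells ranked by TXNIP (left, all cells) or by PGAM1 (right, cells without a PGAM1 sgRNA), with 95% counting intervals as bars. LDHB is lower at each step of the TXNIP ranking, with 587 CPM in the top 20%; along the PGAM1 ranking LDHA is highest in the top 20%, at 1632 CPM, and TXNIP lowest, at 143 CPM.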

How the data were processed

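The deposited matrix gives raw UMI counts per cell barcode and feature. Per the file headers it comes from Cell Ranger 6.1.2; the submitters' processing notes name hg38. How reads were aligned and doublets removed is not stated. It holds 36601 genes and 36 sgRNAs with 136071789 gene UMIs. Gene positions come from RefSeq's GRCh38.p14 table, matched by symbol.

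Cells needed at least 1000 gene UMIs, 500 genes and at most 20% mitochondrial UMIs. A cell was assigned to its leading sgRNA at 5 or more UMIs and 80% of its sgRNA UMIs (stricter: 10 and 90%; looser: 3 and 70%). Doublets were not called; assignment to 1 sgRNA stood in for that. Counts were summed per sgRNA and fitted together in edgeR 4.0.16 (R 4.3.3; quasi-likelihood test, TMM scaling, filterByExpr, Benjamini-Hochberg within each comparison, threshold 0.05), with DESeq2 1.42.0 as an alternative; the code was tested on simulated data. Sums per sgRNA ran from 267726 to 6430143 UMIs. Phases were scored with scanpy 1.11.5. Intervals are exact at 95%, and the limit for a gene with no UMI is 3 counts over the group; both cover counting error only. Rankings by TXNIP or PGAM1 were made within 10 ranges of depth.

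The members and lists were chosen with earlier results of these data known. TXNIP and ARRDC4 were to be described in every comparison, and other members where they passed or where their sgRNAs all lay outside the controls' range; those under 0.05 before adjustment were added after their values were seen. The sgRNA sequences were not analysed here.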

Additional observations from a re-analysis of the deposited data

Results flagged for a closer look

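One value stood far from the others of its group. TXNIP was at 234 CPM with PGAM1 sgRNA 3, from 333 UMIs in 107 cells, and the nearest of the other 3 PGAM1 sgRNAs was at 196 CPM and the lowest at 189 CPM. The gap made up 0.85 of the group's whole range. Of 48 groups of sgRNAs examined this way it was the only one, and chance flags about 1 group in 20. Without it the log2 fold change of TXNIP was 0.27, and the other 3 PGAM1 sgRNAs lay above all 4 controls.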

How the results depend on the processing

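No paired analysis was possible because the sgRNA numbers of different targets name different sgRNAs in 1 culture and pair nothing. The count of members past the threshold with PGAM1 sgRNAs, 1 as reported, was 0 under the stricter sgRNA rule and at most 10% mitochondrial UMIs, and 0 with each of the 8 sgRNAs left out in turn (lowest 0, highest 0). With MYC sgRNAs, 1 as reported, it was 0 with DESeq2's size factors, the stricter rule and G1-scored cells, and between 0 and 1 with an sgRNA left out. With ATF4, CTNNB1, JUN and CTCF sgRNAs it was 0 under all 8 other settings and with each sgRNA left out. DESeq2's size factors used the same cells, and the cause of that lost call was not tested. For MYC the stricter rule and G1 scoring leave 1 sgRNA, as does leaving out a MYC sgRNA, and the single sgRNA left is taken to have the spread of the other groups. The mitochondrial limit left no MYC sgRNA with enough cells and gave no MYC value. The difference of TXNIP in unassigned cells ranged from 0.74 to 0.77 under other settings, with p from 0.0571 to 0.171 by the exact permutation test, and from 0.54 to 0.98 with an sgRNA left out, where 4 against 3 cannot go below 0.0571.

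Among fold changes over control, the sign turned for TXNIP in comparisons where it had not passed. With JUN sgRNAs it was 0.043 in G1-scored cells. With CTCF sgRNAs it was -0.0040 without a filter on low counts and -0.015 under the stricter rule, and between -0.037 and 0.045 with an sgRNA left out (-0.037 without control 3, -0.018 without control 4, -0.033, -0.010 and -0.011 without CTCF sgRNAs 2, 5 and 6). With MYC sgRNAs it was -0.029 without the filter, -0.24 with the stricter rule, -0.16 for G1-scored cells, and between -0.22 and 0.32 with an sgRNA left out (-0.013 without control 3, -0.22 without MYC sgRNA 2). The cause was not tested. With the top 20% in place of the top 10% of the hypoxia score, 8 members were higher, against 7, with the barely detected SLC2A3 among them both times. The log2 ratio of ARRDC4 turned to -0.037, against 0.087, that of MLX to 0.011, against -0.050, and that of SLC16A1 to 0.0052, against -0.28. Depth limits ARRDC4 and SLC2A3, and the 2 MYC sgRNAs hold 68 cells.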
